A study of Rattus norvegicus with 6 samples.

Results

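Stem cells from the skeletal muscle of male rats, kept in culture with no added lipid or serum treatment, were compared between a high glucose control and a low glucose control. The comparison uses 2 of the 6 arrays in the series, 1 array per group. It is the log2 intensity of the high glucose control minus that of the low glucose control, so a positive value means a higher signal in high glucose. Of 18166 genes with a named probe set (a group of short oligonucleotides read together), 11540 were bright enough to be compared. The other arrays are titled LZ serum, OZ serum, cholesterol and fatty acid, and serve here only to place the controls. The cholesterol cells received 100 mg/dl cholesterol carried by cyclodextrin, and the fatty acid cells received sodium palmitate, a saturated fat. All 6 groups hold the same labelled cell type, isolated by plating and carried in flasks or 6-well plates, and total RNA was read on Affymetrix Rat Gene 2.0 ST arrays. The labels give no glucose concentration, medium, exposure time or osmotic control, and LZ and OZ are kept as the titles have them. No group has a replicate array, so values carry no error and could not be tested, and every difference is a statement about these 2 cultures.

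The labelled cell type was checked against marker genes. Of 21 annotated mesenchymal and fibro-adipogenic progenitor markers 18 were above the signal filter, and they differed by a median of 0.04. Cd34 alone of these passed 1.5-fold, at 0.67. Of 20 annotated satellite cell and myoblast genes 13 passed the filter. That is near the share of all genes, 11540 of 18166, so this count does not tell the cell type. Pax7, a satellite cell factor, was just above it at 6.90 in high and 7.04 in low glucose, while the myogenic factors Myf5 and Myod1 were below it. Other members of that list were bright, such as Ncam1 at 12.26 and 12.43 and Eya1 at 10.14 and 9.58, in high and low glucose. Of 20 macrophage and leukocyte markers 6 passed, and the pan-leukocyte gene Ptprc and the macrophage receptors Csf1r and Adgre1 did not. The summed intensity of all 20 was 2187 in high and 1923 in low glucose. That gap was Cd14, a receptor component also made by other cells, at 785 against 517, since the other 19 summed to 1401 and 1406. Of 10 endothelial markers 3 passed, among them neither Cdh5 nor Tek. The arrays had median intensities from 104.6 to 109.2, with 106.1 in high and 104.6 in low glucose. In a bulk culture, fewer cells of a type and less RNA per cell cannot be told apart.

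Cells read glucose in several ways. Glucose 6-phosphate brings the paired factors MondoA or ChREBP with their partner Mlx to E-box sequences in target genes, of which Txnip, an arrestin-like protein that lowers glucose uptake, is the best known. Glucose also feeds glycolysis, the pentose phosphate pathway and lipid synthesis, and nutrient and growth factor supply sets the activity of mTORC1 and of the FOXO factors, which act on growth in opposite directions.

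The 2 controls differed by at least 2-fold in 41 of the 11540 genes, or 0.355%. High glucose was higher in 29 of them, 0.251% of the genes compared, and lower in 12, or 0.104%. At 1.5-fold the counts were 184 higher (1.59%) and 128 lower (1.11%), together 312 or 2.7%. Over all genes the median difference was -0.01 on the log2 scale with an SD of 0.24 across genes, and 5642 genes (48.9%) were higher while 5892 (51.1%) were lower. The serum arrays, compared the same way as OZ minus LZ, differed by 2-fold in 3 genes (0.026%) and had an SD of 0.15. Either lipid array differed by 2-fold from each control in far more genes, from 216 for cholesterol against low glucose to 472 for fatty acid against high glucose. The glucose difference was therefore larger in gene number than the difference between serum arrays and smaller than any difference from a lipid array.

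**Figure D1:**
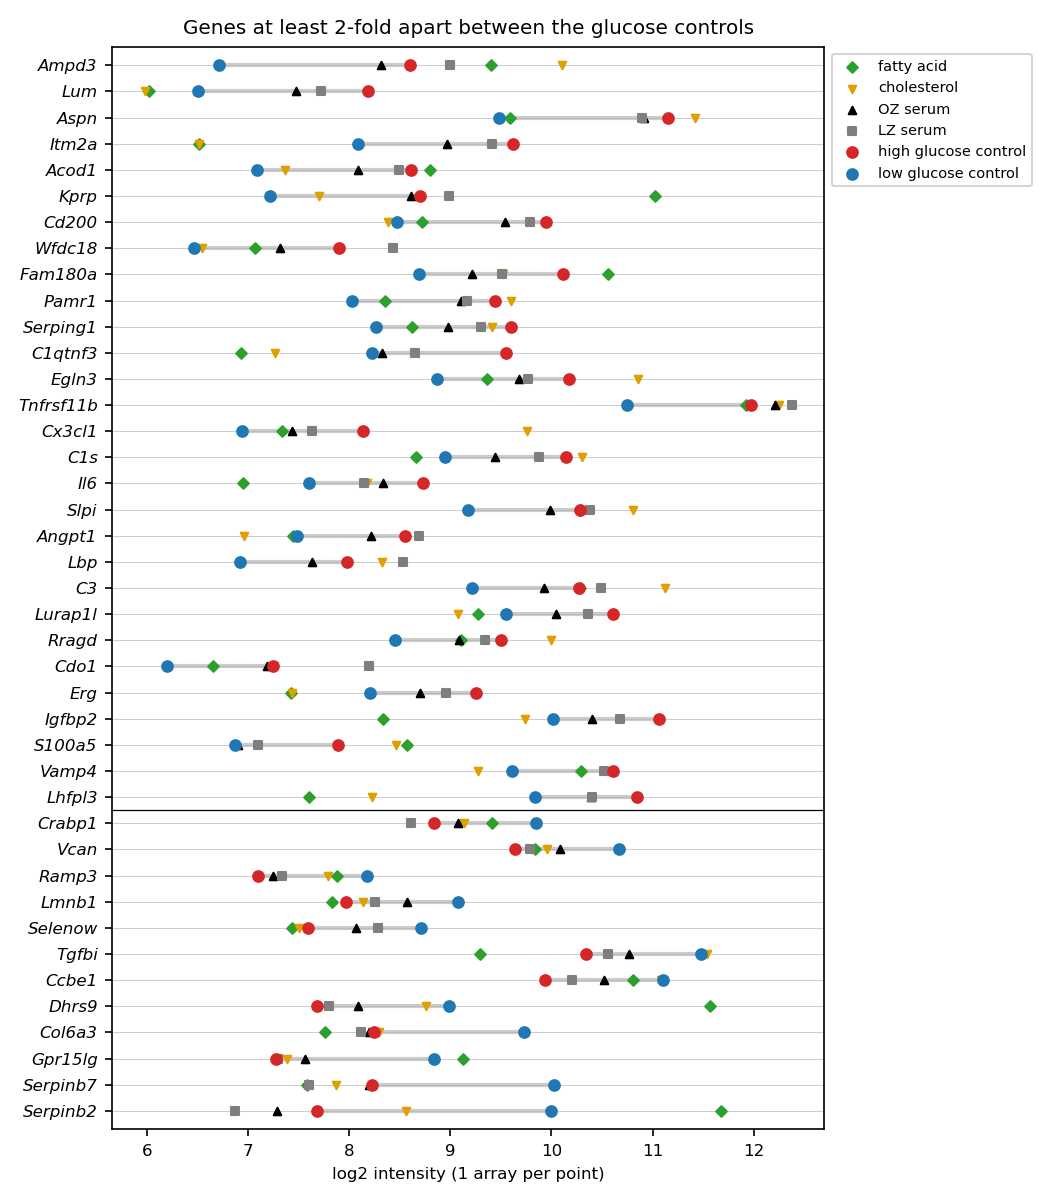
Each line is 1 of the 41 genes at least 2-fold apart between the glucose controls, with the log2 intensity of each of the 6 arrays as a point and a grey bar from the low to the high glucose control. The 29 genes above the black line are higher in high glucose, led by Ampd3, and the 12 below it are lower, led by Serpinb2. Most serum points lie between the controls.

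Among the glucose-sensing genes, Txnip was higher in high glucose, but the set as a whole was not shifted. Txnip read 11.82 in high glucose, 11.03 in low glucose, 11.50 in LZ serum, 11.11 in OZ serum, 11.57 in cholesterol and 12.15 in fatty acid. It was thus lowest of all 6 arrays in low glucose, and the fatty acid array exceeded the high glucose control. The difference between controls was 0.79, or 1.73-fold. Its relative Arrdc4, an alpha-arrestin that is also a MondoA target, read 8.97 in high and 8.62 in low glucose, and 8.73, 8.44, 8.97 and 9.42 in LZ serum, OZ serum, cholesterol and fatty acid. OZ serum, not low glucose, was lowest for Arrdc4. The alpha-arrestins Arrdc3 and Arrdc2 were higher by 0.46 and 0.23, and the repressor Hbp1 by 0.26.

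The transcription factors themselves hardly differed, with 0.09 for Mlxip, which encodes MondoA, and -0.08 for Mlx. Klf10, a glucose-responsive repressor, differed by 0.08. Other genes on the list were lower in high glucose. Tmem97 differed by -0.34 and the fructose-pathway enzyme Tkfc by -0.38. Fads1, a fatty acid desaturase, differed by -0.48. Rgs16, which speeds the shutdown of G protein signalling, read 10.28 in high and 11.28 in low glucose, 10.42 in LZ serum, 10.67 in OZ serum, 9.71 in cholesterol and 11.75 in fatty acid. It was just short of the 2-fold count, and cholesterol and fatty acid lay on opposite sides of the controls. Of the 12 members above the signal filter, 7 were higher and 5 lower with a median of 0.09, against -0.01 over all genes. Of the 15 annotated, Pklr, Gpd1 and Khk were below the filter.

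**Figure D2:**
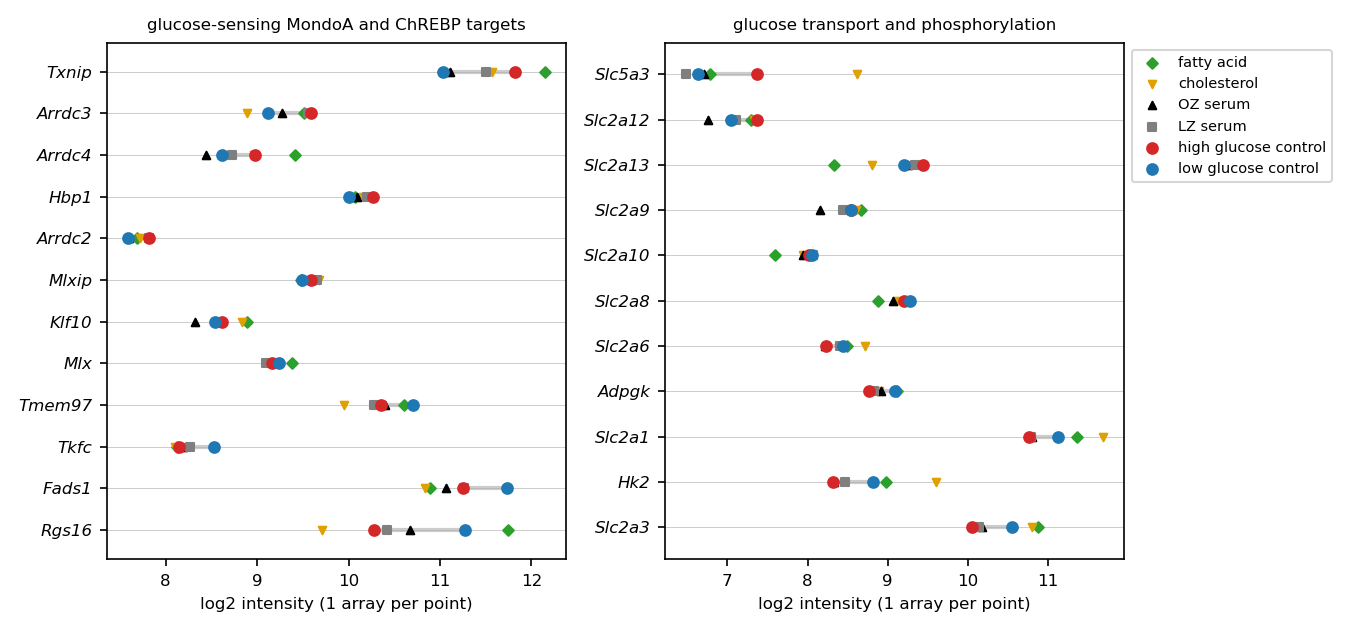
Points give the log2 intensity of each array for the glucose-sensing genes (left) and the glucose transport and phosphorylation genes (right), ordered by the difference between controls, which the grey bar spans. Txnip has the widest gap in favour of high glucose and Rgs16 the widest against it, while Slc2a1, Hk2 and Slc2a3 lie higher in low glucose.

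The upstream sequence of Arrdc4 is shown because, of the target genes with a promoter window, it is the one that holds an E-box. Txnip had no window, so its promoter was not searched. Promoter windows ran from 250 bases before to 50 after each gene start in RefSeq's annotation of the rat build GRCr8, and 9457 of the 11540 genes matched one. The E-box letters CACGTG, which read the same on both strands, occurred in 2 of 10 windows of the glucose-sensing list (Arrdc4 and Mlx) and in 9.58% of all windows. Paired E-boxes of exactly these letters with 5 bases between them were found in no window of any gene. That search allowed no mismatch, so it cannot tell whether looser pairs are present. The stretch below lies at chr1:131793446-131793665 on the minus strand, with E-box and CCAAT letters (CCAAT or its reverse complement ATTGG) in capitals. A match is a description of the letters and not evidence of binding.
Arrdc4: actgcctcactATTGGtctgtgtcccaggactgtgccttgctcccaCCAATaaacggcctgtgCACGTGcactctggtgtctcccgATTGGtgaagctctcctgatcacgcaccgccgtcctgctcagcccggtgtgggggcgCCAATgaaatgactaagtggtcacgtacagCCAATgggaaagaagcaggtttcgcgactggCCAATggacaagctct

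Genes of glucose transport and phosphorylation differed in both directions, with Slc2a1, Slc2a3 and Hk2 lower in high glucose and Slc5a3 higher. Slc2a1, which encodes the widespread transporter GLUT1, read 10.76 in high and 11.13 in low glucose, 10.79 in LZ serum, 10.81 in OZ serum, 11.69 in cholesterol and 11.36 in fatty acid. Slc2a3, the high-affinity transporter GLUT3, read 10.05 in high and 10.56 in low glucose, 10.14, 10.18, 10.80 and 10.88 in the others in the same order. Hk2, the insulin-regulated hexokinase, read 8.31 in high and 8.82 in low glucose, then 8.47, 8.33, 9.61 and 8.98. In all 3 the serum arrays sat beside the high glucose control, and the low glucose control lay between these and the cholesterol array.

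The differences were -0.36 for Slc2a1, -0.51 for Slc2a3 and -0.50 for Hk2. The ADP-dependent glucokinase Adpgk differed by -0.33. The largest difference on the list was that of Slc5a3, the sodium-coupled myo-inositol transporter that cells raise under osmotic stress. Slc5a3 was 1.67-fold higher in high glucose at 7.38 against 6.63, a value near the filter, and the cholesterol array was higher still at 8.61. Slc2a12 differed by 0.32, Slc2a13 by 0.24, Slc2a9 by 0.00, Slc2a10 by -0.04, Slc2a8 by -0.08 and Slc2a6 by -0.21. Of 11 measured members 4 were higher and 7 lower, with a median of -0.08 that was -0.33 among bright genes. The median of 9 genes regulated by the osmotic stress factor Nfat5, among them Slc5a3, was 0.08.

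Enzymes further along glucose metabolism differed little. The 20 glycolysis genes had a median of -0.15 with 7 higher and 13 lower, from Pfkl, a phosphofructokinase subunit, at -0.42 to Bpgm, which makes 2,3-bisphosphoglycerate, at 0.54. In the pentose phosphate list 7 of 9 genes were lower, with a median of -0.18. The 17 TCA cycle genes had a median of -0.04. Idh2, the mitochondrial NADP-dependent isocitrate dehydrogenase, was the exception, lower by just over 1.5-fold at -0.59. The 37 respiratory chain subunits had a median of -0.01, with 16 higher and 21 lower. No gene of the glycolysis, pentose phosphate or respiratory chain lists passed 1.5-fold.

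Genes of the dividing cell were lower in high glucose, gene after gene, although few by much. Of 42 mitosis genes 40 were lower and 2 higher, with a median of -0.45, where 51.1% of all genes were lower. This list and the others were chosen with earlier results of these data known, so their counts are no independent evidence. By 1.5-fold 7 were lower, against 1.11% of all genes. Ccnf, the F-box cyclin, read 8.32 in high and 9.21 in low glucose, 8.71 in LZ serum, 8.87 in OZ serum, 8.94 in cholesterol and 8.80 in fatty acid. Prc1, which bundles the central spindle, read 9.25 in high and 10.00 in low glucose, then 9.60, 9.83, 9.53 and 9.51. Both genes were lowest of the 6 in high glucose and highest in low glucose. Racgap1, a central spindle protein, differed by -0.74. The mitotic kinase Plk1 differed by -0.67, and the kinesins Kif2c and Kif20a by -0.64 each. The spindle protein Dlgap5 differed by -0.63. The nuclear lamin Lmnb1 was lower by more than 2-fold, with 7.97 in high and 9.07 in low glucose, 8.26 in LZ serum, 8.57 in OZ serum, 8.13 in cholesterol and 7.83 in fatty acid.

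DNA replication genes had the same direction. Of 32 genes 30 were lower and 2 higher, with a median of -0.36. By 1.5-fold 8 were lower, where 1.11% of all genes were. Mcm5, a subunit of the helicase that opens replication origins, read 8.28 in high and 9.04 in low glucose, 8.38 in LZ serum, 8.66 in OZ serum, 8.65 in cholesterol and 8.73 in fatty acid. Mcm6 read 8.36 in high and 9.05 in low glucose, then 8.55, 8.69, 8.56 and 8.86. Each was lowest in high glucose and highest in low glucose among all 6 arrays. The other helicase subunits Mcm2, Mcm3 and Mcm7 differed by -0.71, -0.65 and -0.59. Uhrf1, which keeps DNA methylation through replication, differed by -0.72, the ligase Lig1 by -0.70 and the licensing factor Cdc6 by -0.67.

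Promoter letters of these genes are shown because most members of both groups differed in the same direction and share elements known from cell cycle genes. The CHR element, searched as TTTGAA or TTCGAA on both strands, was in 26 of 35 windows of mitosis genes, or 74.3%, against 13.5% of all windows. The E2F letters TTTCCCGC or TTTGGCGC were in 11 of 26 replication windows, or 42.3%, against 2.94%. CCAAT was in 71.4% of the mitosis and 65.4% of the replication windows, against 37.7%. Matches of different motifs overlapped in 1 pair of the mitosis windows and in none of the replication windows. The lists were written from knowledge of cell cycle genes, so shared elements are a property of the lists and not of the glucose comparison. CHR or E2F letters and CCAAT boxes are in capitals. Ccnf is at chr10:13783740-13783889 (minus strand), Prc1 at chr1:143659401-143659480 (plus), Cdc20, the activator of the anaphase ubiquitin ligase, at chr5:137255820-137255919 (minus), Mcm6 at chr13:42404383-42404502 (minus), Mcm5 at chr19:13488593-13488762 (plus) and the helicase cofactor Gins1 at chr3:160184860-160184919 (plus).
Ccnf: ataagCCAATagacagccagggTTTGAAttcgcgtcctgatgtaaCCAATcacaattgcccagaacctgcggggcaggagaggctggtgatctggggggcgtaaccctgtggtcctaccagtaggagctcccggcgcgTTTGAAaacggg
Prc1: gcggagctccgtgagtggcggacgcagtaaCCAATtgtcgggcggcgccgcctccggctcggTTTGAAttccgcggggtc
Cdc20: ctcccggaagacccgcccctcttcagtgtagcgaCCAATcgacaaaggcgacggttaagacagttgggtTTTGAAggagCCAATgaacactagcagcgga
Mcm6: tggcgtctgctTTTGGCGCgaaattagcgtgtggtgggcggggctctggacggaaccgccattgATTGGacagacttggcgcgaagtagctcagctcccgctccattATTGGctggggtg
Mcm5: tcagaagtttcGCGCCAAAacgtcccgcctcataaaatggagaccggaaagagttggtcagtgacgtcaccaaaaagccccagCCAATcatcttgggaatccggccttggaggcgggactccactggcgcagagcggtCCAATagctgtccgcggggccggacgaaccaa
Gins1: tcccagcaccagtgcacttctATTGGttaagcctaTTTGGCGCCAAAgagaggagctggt
Cdc20 and Gins1, chosen for these letters after their values were seen, differed by -0.57 and -0.39.

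**Figure D3:**
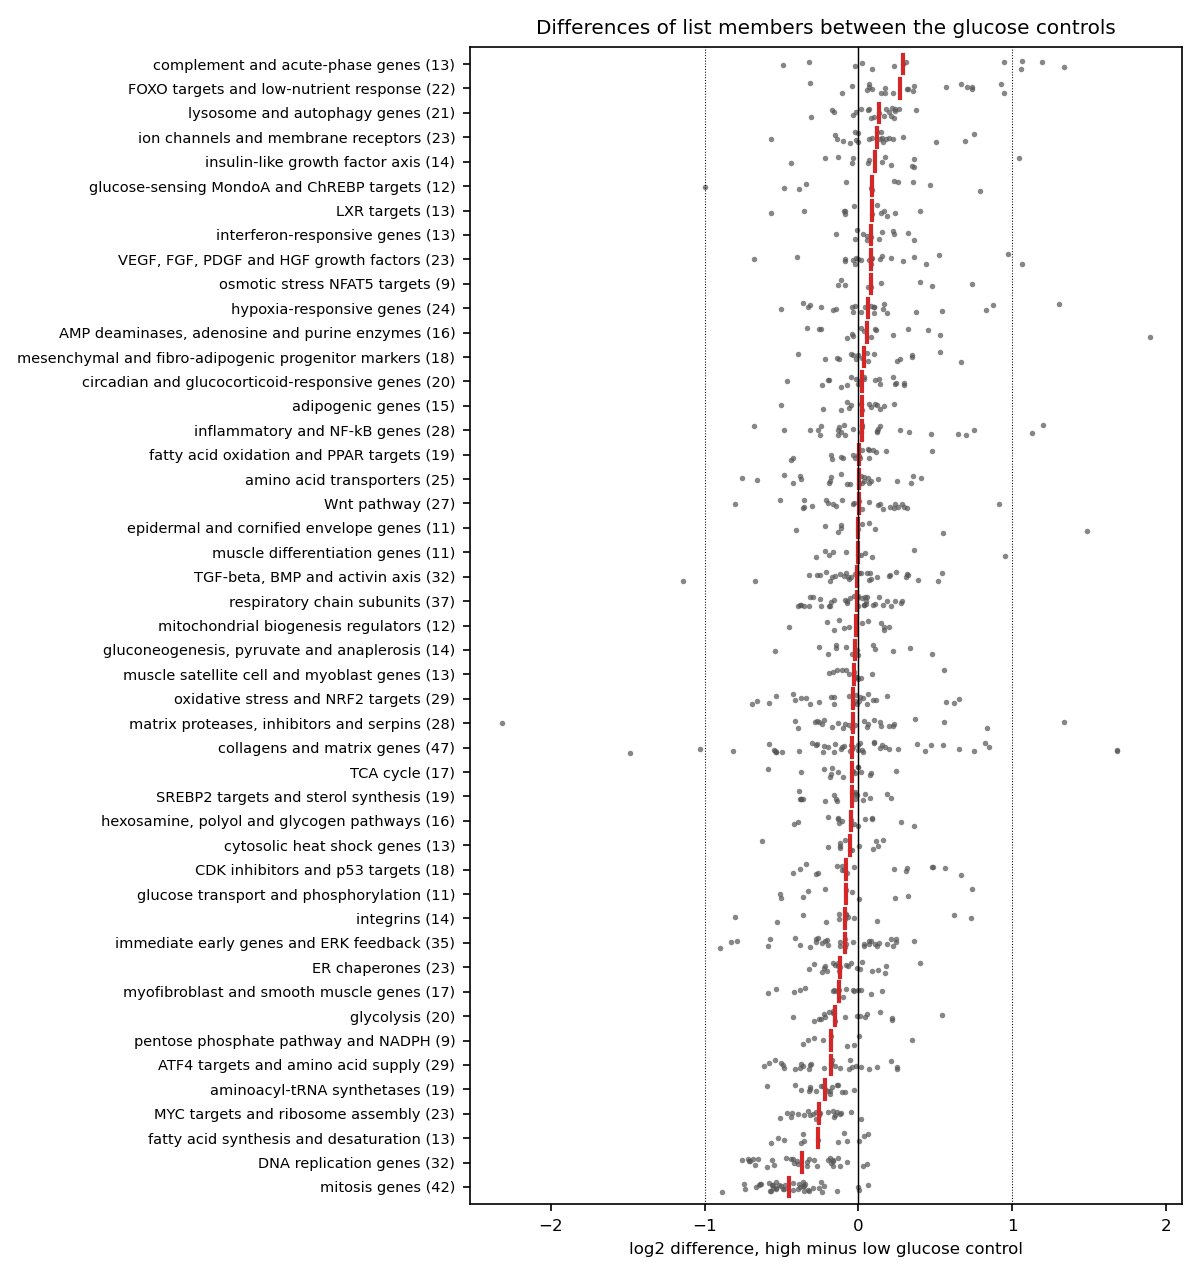
Grey points are the log2 differences (high minus low glucose) of the members of 47 gene lists with at least 9 measured members (lists added after the values were seen are not drawn), 1 row per list with its number of members, and red bars are list medians. The lists drawn were chosen with earlier results of these data known. The solid line is the median of all genes and the dotted lines are 2-fold. Mitosis and DNA replication genes form compact clouds to the left, with medians of -0.45 and -0.36, and of the lists drawn, complement and FOXO have the highest medians, 0.29 and 0.27.

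Biosynthetic genes were also mostly lower, by smaller amounts. All 19 cytosolic aminoacyl-tRNA synthetases, which load amino acids onto tRNAs, were lower, with a median of -0.22 and a range from -0.60 for Vars1 to -0.03 for Hars1 (named after its value was seen). Of 23 genes of MYC and of ribosome assembly 22 were lower, with a median of -0.26. Myc itself differed by -0.43 and Cad, which starts pyrimidine synthesis, by -0.51. Among 17 enzymes of one-carbon and nucleotide synthesis, a list added after the values were seen, 16 were lower with a median of -0.25. The fatty acid synthesis and desaturation list had a median of -0.26, with 10 of 13 members lower, and a median of -0.13 when dim genes were kept. Its desaturases Scd, Fads2 and Fads1 differed by -0.57, -0.52 and -0.48, and the citrate-cleaving enzyme Acly by -0.38. The 29 ATF4 targets and amino acid supply genes had a median of -0.18, with 23 lower. Of the 19 sterol synthesis genes under SREBP2 14 were lower, with a median of -0.04.

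Differences near this size were also seen in probes that measure no rat gene. Of 10 sets of background probes with 16 to 25 G or C bases, all were lower in high glucose, by a median of -0.16 and from -0.21 to -0.03. Of 12 sets with 4 to 15 G or C bases, all were higher, by 0.01 to 0.13, and the set with 3 differed by -0.19. The 18 hybridisation control probe sets were all higher, by a median of 0.20 and from 0.08 to 0.39. They read the bacterial and phage transcripts bioB, bioC, bioD and cre, added to each sample. Several probe sets read each transcript, so they are not independent of each other. Negative list medians down to about -0.2 are no larger than the shift of the G or C rich background probes, and positive list medians, 0.29 at most among the lists not added after the values were seen, are within the range of the hybridisation controls. The medians for tRNA synthetases, MYC and ribosome assembly, one-carbon enzymes and fatty acid synthesis, from -0.22 to -0.26, lie just beyond the lowest background shift of -0.21. The mitosis and replication medians exceed every negative shift of these background probes by more. The replication median is still smaller in size than the largest positive shift of a hybridisation control. Some single control probe sets dimmer than the filter level differed by more than both medians in size. Examples are ThrX-M_st at -0.61 and r2-Bs-phe-5_st at 0.51. The part of base composition in the list medians was not tested.

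Genes linked to low nutrient supply and FOXO were higher in high glucose. Of 22 measured members 19 were higher and 3 lower, with a median of 0.27, where 48.9% of all genes were higher. By 1.5-fold 6 were higher, against 1.59% of all genes. Deptor, an inhibitor bound to mTOR, read 9.32 in high and 8.38 in low glucose, 8.93 in LZ serum, 8.89 in OZ serum, 8.42 in cholesterol and 7.40 in fatty acid. Pik3ip1, an inhibitor of PI3 kinase, read 10.01 in high and 9.08 in low glucose, then 9.92, 9.52, 9.30 and 7.64. For both genes high glucose was the highest of the 6 arrays and fatty acid the lowest.

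Fbxo32, which encodes the muscle ubiquitin ligase atrogin-1, differed by 0.74, and so did the repressor Bcl6. Klhl24 differed by 0.71 and the cyclin Ccng2 by 0.67. Only Trim63, the other muscle-wasting ligase on the list, was below the signal filter among the 23 annotated. The lysosome and autophagy list had 16 of 21 members higher, with a median of 0.14 and none past 1.5-fold. Rragd, a Rag GTPase that carries amino acid signals to mTORC1 at the lysosome, was higher by 1.05, or 2.07-fold, at 9.51 in high and 8.45 in low glucose. The serum arrays were between the controls for Rragd, and cholesterol was above both at 9.99. Cell cycle inhibitors and p53 targets were mixed, with 7 of 18 higher and Tp53inp1 at 0.56 and Cdkn2b at 0.48.

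Several complement genes were higher in high glucose. Of 13 measured complement and acute-phase genes 10 were higher and 3 lower, with a median of 0.29, and 4 passed 2-fold, where 0.251% of all genes did. C3, the central complement protein, read 10.28 in high and 9.22 in low glucose, 10.49 in LZ serum, 9.93 in OZ serum, 11.13 in cholesterol and 10.28 in fatty acid. C1s, the protease of the first component, read 10.14 in high and 8.95 in low glucose, then 9.87, 9.44, 10.30 and 8.66. Serping1, the inhibitor of that protease, read 9.60 in high and 8.26 in low glucose, then 9.30, 8.98, 9.41 and 8.62. Low glucose was the lowest array for C3 and Serping1, and fatty acid for C1s.

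Lbp, which binds bacterial lipopolysaccharide, read 7.98 in high and 6.92 in low glucose and was highest in LZ serum, at 8.54. Cp, the copper-carrying ferroxidase ceruloplasmin, differed by 0.95. C1r, the partner of C1s, differed by 0.09 and was named after its value was seen. The median of the complement list depended on dim genes: it was 0.06 with all 20 annotated genes and 0.62 among bright genes. The macrophage markers other than Cd14 had nearly equal sums in both controls, as given above.

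Inflammatory genes as a whole were not shifted. The 28 inflammatory and NF-kB genes had a median of 0.02, with 15 higher and 13 lower. Cx3cl1, the membrane-bound chemokine fractalkine, read 8.13 in high and 6.94 in low glucose, 7.64 in LZ serum, 7.44 in OZ serum, 9.76 in cholesterol and 7.33 in fatty acid. Il6 read 8.73 in high and 7.61 in low glucose, then 8.15, 8.33, 8.18 and 6.95. High glucose was the highest array for Il6 and second to cholesterol for Cx3cl1.

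Ptges, the inducible prostaglandin E synthase, differed by 0.75, Tlr2 by 0.70 and Tlr4 by 0.65. The chemokine Ccl7 went the other way, at -0.68. Acod1, which makes itaconate in activated macrophages, read 8.61 in high and 7.08 in low glucose, 8.49 in LZ serum, 8.09 in OZ serum, 7.36 in cholesterol and 8.79 in fatty acid. Cd200, a surface ligand that restrains myeloid cells, was higher by 1.47, and the protease inhibitor Slpi by 1.11. Tnfrsf11b, the decoy receptor osteoprotegerin, read 11.98 in high and 10.75 in low glucose, and between 11.93 and 12.38 in the other 4 arrays. Low glucose was therefore the array that stood apart for Tnfrsf11b.

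The gene with the largest positive difference was Ampd3, which deaminates AMP to IMP. It read 8.60 in high and 6.71 in low glucose, 9.0 in LZ serum, 8.32 in OZ serum, 10.10 in cholesterol and 9.41 in fatty acid. The difference was 1.89, or 3.71-fold, and low glucose lay below every other array and just under the filter level of 6.74. The other 15 of 16 measured purine and adenosine genes did not pass 1.5-fold, and the list median was 0.06.

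Small leucine-rich proteoglycans, matrix proteins that bind collagen fibrils and growth factors, were higher in high glucose. Lum, or lumican, read 8.18 in high and 6.50 in low glucose, 7.72 in LZ serum, 7.48 in OZ serum, 5.98 in cholesterol and 6.02 in fatty acid. Aspn, or asporin, read 11.16 in high and 9.48 in low glucose, then 10.90, 10.91, 11.42 and 9.59. Each was higher by 1.68, or 3.21-fold, although the low glucose value of Lum was under the filter level of 6.74. For Lum the low glucose array lay nearer to the lipid arrays than the serum arrays did, and for Aspn it was the lowest of the 6.

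The family was put together after the values were seen, so its count, like those of the other lists, is no independent evidence. Of 11 measured members 9 were higher and 2 lower, with a median of 0.55 and 5 higher by 1.5-fold. Decorin (Dcn) differed by 0.65, with 13.11 in high and 12.45 in low glucose. Fmod differed by 0.75 and Optc by 0.62. Prelp and Ogn differed by 0.55 and 0.38. Omd, or osteomodulin, read 8.22 in high and 6.85 in low glucose, a difference of 1.37, but missed the filter because its mean over all 6 arrays was too low. Bgn, or biglycan, differed by 0.00. Several of these genes are neighbours in the rat genome: no protein-coding gene lies between Lum and Dcn, between Aspn and Omd or between Fmod and Prelp.

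Collagen chains went the other way. Of 27 measured chains, a list also added after the values were seen, 22 were lower and 5 higher, with a median of -0.16, the size of the background probe shift, and of -0.39 among bright genes. Col6a3, a chain of type VI collagen, read 8.24 in high and 9.73 in low glucose, 8.11 in LZ serum, 8.19 in OZ serum, 8.29 in cholesterol and 7.76 in fatty acid. Low glucose alone was high, by at least 2-fold over each of the other non-lipid arrays. Col15a1 differed by -0.81, and the more abundant Col1a1 and Col3a1 by -0.15 and -0.30. Vcan, the large proteoglycan versican, read 9.64 in high and 10.67 in low glucose, and between 9.79 and 10.08 in the other arrays. Tgfbi, a TGF-beta-induced adhesion protein, differed by -1.14, and its cholesterol value of 11.54 was close to the 11.48 of low glucose. Elastin (Eln) and Cilp were higher in high glucose by 0.85 and 0.82. Over the wider list of 47 collagens and matrix genes these directions cancelled, with a median of -0.04.

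Clade B serpins, intracellular and secreted protease inhibitors, held the genes with the largest negative differences. Serpinb2, plasminogen activator inhibitor 2, read 7.68 in high and 9.99 in low glucose, 6.87 in LZ serum, 7.28 in OZ serum, 8.56 in cholesterol and 11.68 in fatty acid. The difference was -2.32, or 4.98-fold lower in high glucose. Serpinb7 read 8.22 in high and 10.03 in low glucose, then 7.60, 8.20, 7.87 and 7.58, and was 3.49-fold lower. Fatty acid exceeded low glucose for Serpinb2 but was the lowest array for Serpinb7. They are next to each other on the chromosome, with no protein-coding gene between. Of 16 annotated members 4 passed the filter, and Serpinb9 and Serpinb6a differed by -0.22 and -0.15. The plasminogen activator Plau and its receptor Plaur, named after their values were seen, differed by -0.41 and -0.27.

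Other genes lower by 2-fold in high glucose were spread over several functions. Gpr15lg, a secreted receptor ligand, read 7.28 in high and 8.83 in low glucose, 7.29 in LZ serum, 7.56 in OZ serum, 7.38 in cholesterol and 9.13 in fatty acid. Dhrs9, a retinol dehydrogenase, differed by -1.31 and Crabp1, which binds retinoic acid, by -1.01. Ccbe1, which helps process the lymphatic growth factor VEGF-C, differed by -1.16. Selenow, a small selenoprotein, differed by -1.12 and the receptor-modifying protein Ramp3 by -1.07. Of the immediate early and ERK feedback genes, 4 of 35 were lower by 1.5-fold, where 1.11% of all genes were, and none higher: Phlda1 by -0.90, Fosl1 by -0.83, Dusp6 by -0.79 and Etv4 by -0.59. That list as a whole had a median of -0.09, with 21 lower.

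Some genes of the hypoxia, growth factor and Wnt lists differed by more than 1.5-fold. Egln3, the prolyl hydroxylase that marks HIF for decay and is itself hypoxia-induced, read 10.18 in high and 8.87 in low glucose, 9.77 in LZ serum, 9.68 in OZ serum, 10.86 in cholesterol and 9.37 in fatty acid. The hypoxia genes Car9, a carbonic anhydrase, and Stc1, stanniocalcin, differed by 0.87 and 0.83, but the 24 hypoxia genes had a median of 0.06 with 14 higher. Angpt1, the ligand of the Tie2 receptor, differed by 1.06 and Pdgfd by 0.97. Kitlg, on the same growth factor list, went the other way at -0.68. Igfbp2, a carrier of insulin-like growth factors, differed by 1.04. The Wnt inhibitor Sfrp4 was higher by 0.91 while the Wnt transcription factor Lef1 differed by -0.80.

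Itm2a differed by 1.54, Kprp by 1.49, Wfdc18 by 1.43 and Fam180a by 1.42. Pamr1 differed by 1.41 and the adipokine-like C1qtnf3 by 1.33. Lurap1l, Erg and Cdo1, the cysteine dioxygenase, were each higher by between 1.05 and 1.06. In low glucose Wfdc18 and Cdo1 read 6.47 and 6.19, under the filter level. Both also differed by 2-fold between the serum arrays, with OZ minus LZ at -1.12 and -1.02. S100a5, Vamp4 and Lhfpl3 were just inside the threshold, at 1.02, 1.01 and 1.01. Erg is an endothelial ETS factor, and the defining endothelial genes Cdh5, Tek and Vwf were below the filter. Among metal and oxidant defence genes, the metallothioneins Mt1 and Mt2A differed by -0.69 and -0.66, and Gpx3 and Gsta4 by 0.66 and 0.62. Pln, or phospholamban, differed by 0.95, while the 11 measured muscle differentiation genes had a median of 0.00.

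The serum arrays place the difference mainly with the low glucose culture, while the lipid arrays were mixed. LZ serum differed from high glucose by 2-fold in 3 genes and from low glucose in 33. OZ serum differed from high glucose in 6 genes and from low glucose in 22. Cholesterol differed from high glucose in 232 and from low glucose in 216, and fatty acid in 472 and 427. Against all 3 other non-lipid arrays at once, low glucose stood apart by 2-fold in 11 genes, and high glucose, LZ serum and OZ serum each in 0. At 1.5-fold low glucose stood apart in 66 genes, high glucose in 9, LZ serum in 4 and OZ serum in 9. Among the non-lipid arrays, low glucose alone was 2-fold high for Col6a3, Gpr15lg, Serpinb2 and Serpinb7. It alone was 2-fold low for Acod1, Ampd3, Aspn, Cd200, Kprp, Pamr1 and Tnfrsf11b. The fatty acid array was above low glucose for Serpinb2 and Gpr15lg, and the cholesterol array was below it for Cd200. Of the 41 genes, LZ serum was nearer to high glucose in 37 (90.2%, against 62.6% of all genes) and OZ serum in 32 (78.0%, against 60.4%). Cholesterol was nearer to high glucose in 24 (58.5%, against 46.4%) and fatty acid in 16 (39.0%, against 52.5%). These 41 genes were chosen on the control values, so their distance from the controls is in part set by that choice. The labels do not say which glucose level the serum or lipid cultures received.

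Cell cycle genes followed another order. Their median log2 level was 9.09 in low glucose, 8.90 in OZ serum, 8.68 in LZ serum and 8.52 in high glucose, with 8.62 in cholesterol and 8.57 in fatty acid. High glucose was the lowest of the 4 non-lipid arrays in 37 of the 42 mitosis genes, and low glucose or OZ serum was the highest in all 42 (20 and 22). For the replication genes the median levels were 8.77 in low glucose, 8.53 in OZ serum, 8.41 in LZ serum and 8.32 in high glucose. Low glucose was highest in 26 of these 32 and high glucose lowest in 23.

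**Figure D4:**
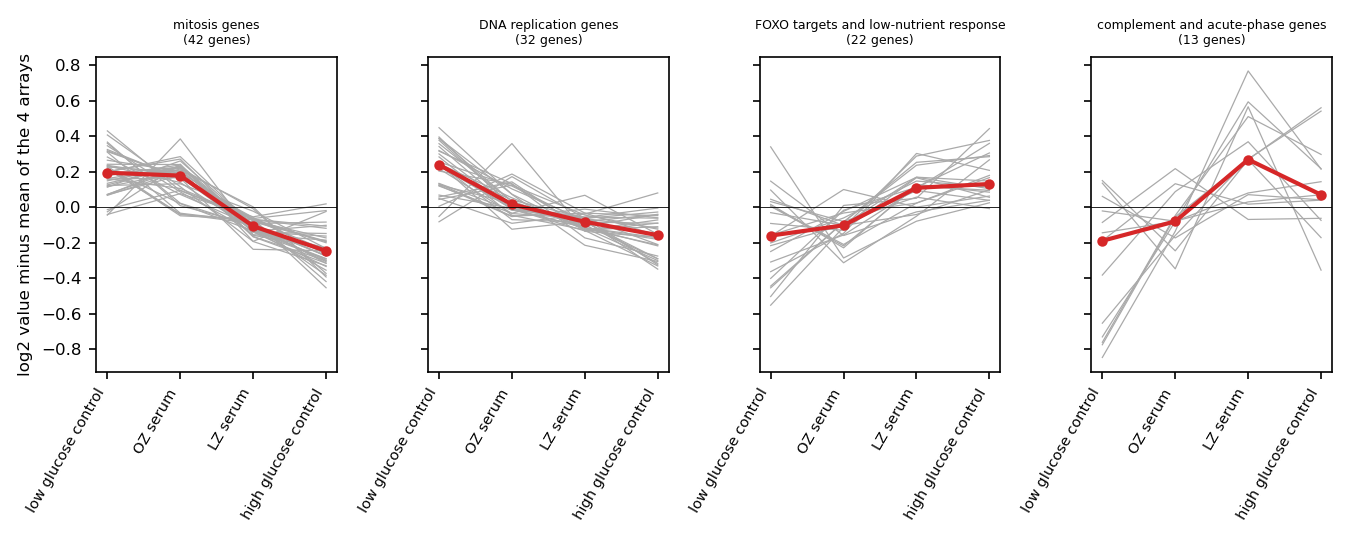
Grey lines are genes of 4 lists across the 4 arrays without added lipid, as log2 value minus the mean of the 4, and red points are medians; the order of the arrays is for display and is not a dose or time. Mitosis and replication genes descend from low to high glucose, and most FOXO and complement genes are lowest in low glucose or OZ serum.

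The comparison of OZ with LZ serum shares no array with the glucose controls and placed several of these groups on opposite sides. OZ was above LZ in 42 of 42 mitosis genes, with a median of 0.27, where 41.9% of all genes were above. OZ was below LZ in 26 of the 29 genes higher in high glucose, where 58.1% of all genes were below, with a median of -0.30, and above LZ in 10 of the 12 genes lower in high glucose, with a median of 0.29. In the FOXO and low-nutrient list 21 of 22 genes were lower in OZ, with a median of -0.22. In the complement list 11 of 13 were lower, with a median of -0.32. Other groups had the same sign in both comparisons: 23 of 27 collagen chains, 10 of 13 fatty acid synthesis genes and 15 of 20 glycolysis genes were lower in OZ as they were mostly lower in high glucose. Over the 47 lists with at least 9 measured members, the medians had opposite signs in 26 and the same sign in 21. Most of these serum differences were small, since 30 of all genes (0.26%) differed by 1.5-fold between the serum arrays, 13 of them higher in OZ (0.113%) and 17 lower (0.147%). The background probes with 16 to 25 G or C bases differed by a median of -0.14 between OZ and LZ and of -0.16 between high and low glucose. The part of base composition was not tested in either comparison.

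**Figure D5:**
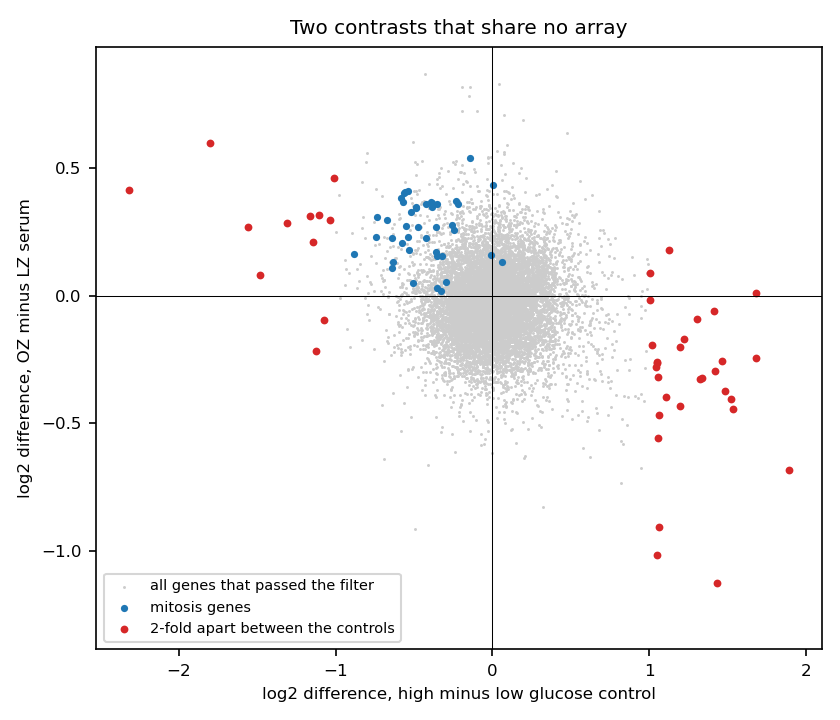
Each point is a gene, with its log2 difference between high and low glucose on the horizontal axis and between OZ and LZ serum on the vertical axis. The mitosis genes (blue) lie mostly at the upper left and the 41 genes at least 2-fold apart between the controls (red) mostly at the upper left and lower right, while all measured genes (grey) centre near 0 on both axes.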

How the data were processed

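Per the labels, total RNA of 6 cultures was read on Affymetrix Rat Gene 2.0 ST arrays. The authors deposited a linear intensity for each of 36685 probe sets on every array. How these were summarised and normalized is not stated in the labels, and the arrays were treated as already on a common scale, so a true difference in total RNA could not be seen. The platform annotation gives 18511 probe sets a lone gene, 575 more than that and 17599 none. For the 291 genes with more than 1 probe set the brightest was taken. Genes were kept where the mean log2 intensity of the 6 arrays reached the median of all values, 6.74 (intensity 107.2). The difference is log2 high minus log2 low glucose, counted at 2-fold. The 54 gene lists and the comparison were chosen with earlier results of these data known, and 5 lists were added after the values were seen. Genes open to naming were all 41 at least 2-fold apart, up to 4 per list and list members past 1.5-fold. All glucose-sensing and transport genes were added, and provisional symbols were passed over. Not every list member past 1.5-fold is described above, for example Adamts5 at 0.83 and Id3 at -0.67. Counting was run on simulated data with the spread of the serum arrays, but its check allowed a miscount larger than the 2-fold count reported here. Alternatives were other scalings, filters, an offset of 32 and a 1.5-fold threshold. Python 3.11.15, pandas 2.3.3, R 4.3.3 and limma 3.58.1 were used.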

Additional observations from a re-analysis of the deposited data

How the results depend on the processing

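The counts of 29 higher and 12 lower genes were 28 and 12 after quantile normalization, 26 and 14 after centring on the median, 29 and 12 after cyclic loess, 35 and 18 with no signal filter, 24 and 11 with a stricter filter, 29 and 13 with a filter on the controls, 29 and 12 when a gene's probe sets were averaged, and 22 and 10 with an offset of 32. At 1.5-fold they were 184 and 128. The offset of 32, which shrinks dim genes, took Angpt1, Cdo1, Crabp1, Erg, Lbp, Lhfpl3, Ramp3, Rragd, S100a5 and Vamp4 below 2-fold. The stricter filter dropped Cdo1, Lbp, Lum, Ramp3, S100a5 and Wfdc18, and no scaling moved the median over all genes beyond 0.03 from 0. Of the list medians 15 moved by more than 0.1, all with another filter. With no filter the medians were 0.06 for complement, -0.13 for fatty acid synthesis, 0.38 for small leucine-rich proteoglycans and -0.06 for clade B serpins. With the stricter filter they were -0.47 for DNA replication, -0.33 for glucose transport, -0.39 for collagen chains and 0.62 for complement. In 12 of 58 list medians the sign changed under some alternative. All 12 were within 0.09 of 0 in the report, the farthest being LXR targets, at 0.09 and then -0.03 with no filter and -0.06 with the stricter filter. Muscle differentiation genes went from 0.00 to 0.19 with the stricter filter. Of the genes chosen by the naming rule, Slc2a9 changed sign, from 0.00 to -0.02 after centring on the median, and no other did. No paired analysis was possible because each group has 1 array. The number of arrays limits the precision, and no value here separates glucose from any other difference between the 2 cultures.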

Other observations

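Probe sets without a gene name differed more often than named genes. Of 18174 probe sets that the annotation ties to no gene or to several, 6559 passed the same signal filter. High glucose was at least 2-fold higher in 57 of these and lower in 49, together 1.616%, against 0.355% of the named genes. They are reported as a count, since no gene can be given for them.

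The histone genes were split. Of 5 measured members of a histone list 2 were higher and 3 lower, from H2ax at -0.50 to Hist1h4b at 0.83, while the DNA replication genes were lower in 30 of 32. Membrane channels and receptors included Kcnj15 at 0.75 and Npr3 at 0.69, with a median of 0.12 over 23 genes. Of 14 measured members of the integrin list 3 were higher and 11 lower, with a median of -0.09. Among them Itga3 differed by -0.80 and Itgbl1 and Itga9 by 0.73 and 0.62. The 13 interferon-responsive genes had a median of 0.08, with 10 higher and none past 1.5-fold.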
